A study of Rattus norvegicus with 49 samples.

Results

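The livers of 5 female F344 rats given furan at 2 mg/kg were compared with those of 5 female rats given the vehicle alone. These 10 arrays were chosen by dose and sex from the 49 arrays of the series. F344 is an inbred rat strain, and the rats entered the study aged 7 to 8 weeks. They were gavaged on 5 days of each week for 90 days with furan in Mazola corn oil, and the controls received the oil at 0 mg/kg. The other groups were females at 0.03, 0.12 and 0.5 mg/kg and males at all of these doses, with 5 rats each except for 4 males at 0.03 mg/kg. Each array held Cy5-labelled liver RNA of 1 rat beside Cy3-labelled universal rat reference RNA, with no dye swaps, and every level below is the log2 ratio of liver over reference.

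Furan is a small ring ether found in heated foods. Cytochrome P450 2E1 in the hepatocyte opens the ring to a reactive dialdehyde, which binds glutathione and proteins. Liver and bile duct are its known target tissues in the rat. Genes that detoxify such products include glutathione transferases, aldo-keto reductases, which reduce aldehydes, and export pumps of the canalicular membrane.

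Calls required a limma adjusted p of 0.05 or less together with a change of 1.5-fold or more. Of 17658 probes tested, 118 were called between 2 and 0 mg/kg, which is 0.668% of the tested probes. The 44 rises were 0.249% and the 74 falls 0.419%. The arrays came from 8 slides, and only 2 slides held both a female control and a female 2 mg/kg array. Slides 5 and 8, with 3 of the 5 furan arrays, held no female control. With slide as a fixed block, 116 probes were called (0.657%), of which 66 rose (0.374%) and 50 fell (0.283%). The calls of both fits shared 47 probes (0.266%), with 18 rises and 29 falls, and 36 of these probes carried a gene symbol. Groups that did not overlap were found for 222 probes above (1.26%) and 484 below (2.74%) the controls over all probes tested, and for 27 of these 47. All 47 were also called with the slide block once a dim male array at 0.03 mg/kg, with 5.06% of its spots well above background in the liver channel, had been left out. With median centring in place of loess, 0 probes were called by limma (3856 had an unadjusted p under 0.05), and Abcb1b gave 1.76 (adjusted p = 0.228) and Slc39a5 -1.69 (adjusted p = 0.0792). Leaving out 1 of the 10 arrays gave 4 probes (without control 2) to 957 (without furan rat 90) without the slide term, and 45 (without control 2) to 203 (without control 4) with it.

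The liver channel was dimmer on most furan arrays. The share of spots well above background in that channel was 58.0% to 71.1% on the control arrays and 44.3% to 64.3% on the furan arrays. Hepatocyte transcripts, the tissue check, were well above background on all 10 arrays for 10 of 10 markers. The mean level of the 10 markers ran from 5.89 to 6.85 in the controls and from 4.90 to 6.34 in the furan rats. Their median change was -1.04 without and 0.03 with the slide term, and 0 of 10 were called in either fit. The median over all probes tested was -0.08 without and 0.01 with the slide term. The part of the slides in each result below was not tested beyond the fit that holds them as a block. The female label was checked with Cyp2c12, a P450 of female rat liver, at 10.03 ± 0.36 (SD, n = 5) in female controls and 2.95 ± 0.86 (SD, n = 5) in male controls.

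**Figure D1:**
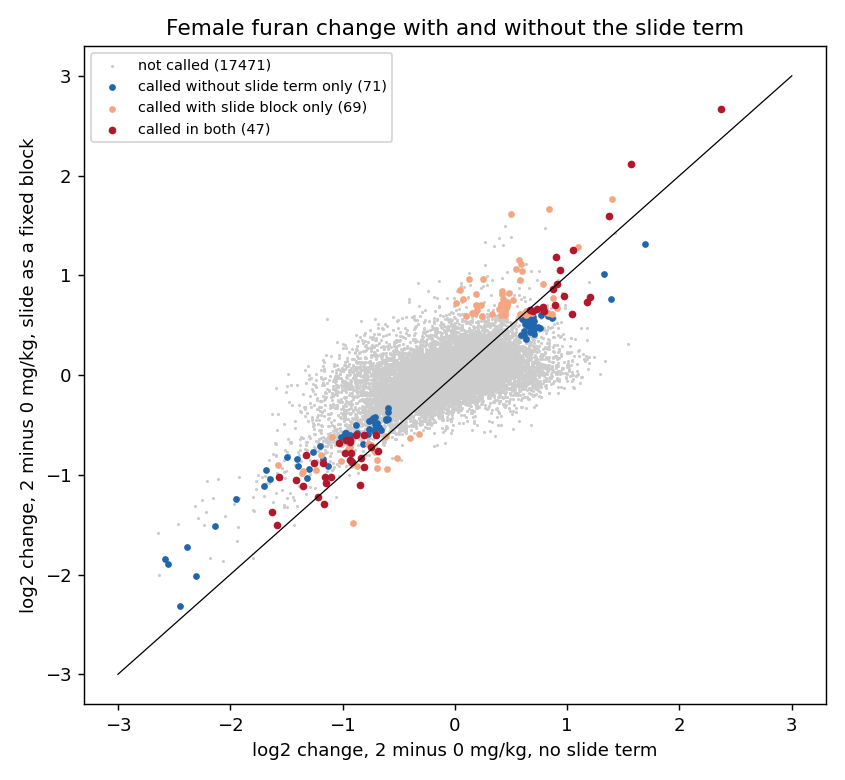
Log2 change of each tested probe between 2 and 0 mg/kg in females, without the slide term (x axis) and with slide as a fixed block (y axis). Points are probes, the line marks equal values, and colours give the 47 probes called in both fits, the 71 called without the slide term only and the 69 called with it only.

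The largest rise was that of Abcb1b, which encodes a P-glycoprotein pump that exports drugs and other compounds into bile. Its level was -0.97, -1.13, -1.05, -0.95 and -0.79 in controls 2, 4, 7, 9 and 11, and 0.08, 1.87, 1.51, 2.00 and 1.49 in furan rats 82, 83, 85, 90 and 92. All 5 furan rats lay above all 5 controls, and furan rat 82 was the lowest of them. The difference was 5.16-fold, with a log2 change of 2.37 (SE 0.42, adjusted p = 0.00796) without the slide term and 2.66 (SE 0.41, adjusted p = 0.000519) with it. It was called in each of the 10 fits that left out 1 array, with and without the slide term. A second and brighter Abcb1b probe gave 0.58 (adjusted p = 0.208) without and 0.95 (adjusted p = 0.0293) with the slide term. The probes of this gene thus differ in size of change, and the 5.16-fold difference belongs to the dimmer probe.

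Carbonyl metabolism was represented by Cryl1 and Akr7a3. Cryl1 encodes an L-gulonate dehydrogenase, and its level was 0.74, 0.95, 0.59, 1.42 and 0.09 in the controls and 1.80, 1.94, 1.95, 2.10 and 2.86 in the furan rats. No furan rat overlapped the controls, and the log2 change was 1.37 (SE 0.31, adjusted p = 0.0315) without the slide term and 1.5999 (SE 0.34, adjusted p = 0.00921) with it. Akr7a3, an aldo-keto reductase that reduces aflatoxin dialdehyde, had levels of 1.41, 2.15, 0.92, 1.29 and 0.87 in the controls and 1.59, 3.45, 2.92, 2.44 and 3.23 in the furan rats. Rat 82 lay within the control range and the other 4 furan rats lay above it. The log2 change of Akr7a3 was 1.40 (SE 0.44, adjusted p = 0.0869) without the slide term and 1.77 (SE 0.41, adjusted p = 0.0173) with it, so it was called with the slide block only. A list of aldo-keto reductases and of aldehyde and alcohol dehydrogenases, to which Cryl1 had been added, had 25 measured genes. Of these, 1 rose without the slide term, which was Cryl1, and 2 rose with it, Cryl1 and Akr7a3. In either fit 0 fell. Their median change was -0.20 without and 0.22 with the slide term. Without the slide term 9 of the 25 had a value above 0 and 16 a value below 0, and with it 18 had a value above 0. Akr1a1, another aldehyde reductase, gave a log2 change of 0.32 without and 0.51 with the slide term. Akr1b7, another aldo-keto reductase, gave -0.56 without and -0.49 with the slide term.

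Mgmt, the DNA repair protein that removes alkyl groups from guanine, rose in the furan rats. Its level was 0.15, 0.60, 0.38, 0.15 and 0.10 in the controls and 0.68, 1.33, 1.53, 1.17 and 1.35 in the furan rats. The groups did not overlap, and the log2 change was 0.94 (SE 0.18, adjusted p = 0.00802) without the slide term and 1.05 (SE 0.17, adjusted p = 0.000646) with it. It belongs to a list of 20 measured p53 target and DNA repair genes, in which 2 rose and 1 fell without the slide term and 1 rose and 1 fell with it. The second rise, of the apoptosis gene Bax, was 0.65 (SE 0.13, adjusted p = 0.0188) without the slide term and 0.49 (SE 0.11, adjusted p = 0.00985) with it, which is under 1.5-fold in the second fit. The fall was that of Gdf15, a secreted stress cytokine. Cdkn1a, the cell cycle inhibitor downstream of p53, gave -0.31 without and 0.18 with the slide term, adjusted p = 0.53 and 0.555. Mdm2, the p53 ubiquitin ligase, gave 0.21 without and -0.11 with the slide term, adjusted p = 0.573 and 0.846.

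Other rises were those of Sort1, Tspan8, Ica1, Kif12 and Lgals2. Sort1, the sorting receptor sortilin, had levels of -1.497, -0.94, -1.24, -1.37 and -1.30 in the controls and -0.07, 0.08, -0.10, 0.07 and -0.30 in the furan rats, with no overlap and a log2 change of 1.21 (SE 0.24, adjusted p = 0.0122) without the slide term and 0.78 (SE 0.15, adjusted p = 0.0042) with it. A second Sort1 probe gave 0.74 (adjusted p = 0.0315) without and 0.48 (adjusted p = 0.0479) with the slide term, under 1.5-fold in the second fit. Tspan8, a tetraspanin of epithelial membranes, had levels of -1.68, -0.96, -1.34, -1.26 and -1.26 in the controls and -0.09, 0.11, -0.29, -0.33 and -0.04 in the furan rats, again with no overlap, and changed by 1.17 (SE 0.27, adjusted p = 0.0315) without the slide term and 0.73 (SE 0.16, adjusted p = 0.0091) with it. Its probe was well above background on 3 of 5 arrays in each group. Ica1, a membrane-binding protein of vesicle traffic, changed by 0.97 (SE 0.16, adjusted p = 0.00769) without the slide term and 0.79 (SE 0.16, adjusted p = 0.00745) with it and was called in 10 of 10 fits that left out an array without and 9 of 10 with the slide term, while the 15 largest rises and falls other than Abcb1b, Ica1 and Slc39a5 were called in 2 to 9 of 10 without and 1 to 10 of 10 with it. Kif12, a kinesin motor, changed by 0.91 (SE 0.21, adjusted p = 0.0315) without the slide term and 0.91 (SE 0.22, adjusted p = 0.0255) with it. Lgals2, a galactose-binding lectin, changed by 0.90 (SE 0.23, adjusted p = 0.0464) without the slide term and 1.19 (SE 0.21, adjusted p = 0.00214) with it, and furan rat 82 lay within the control range.

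Bile duct epithelium was read with a list of 18 measured markers, of which Kif12 and Tspan8 rose in both fits and Krt20 with the slide block only. The list was chosen with earlier results of these data known, so its calls are no independent check. The median change of the list was 0.52 without and 0.37 with the slide term. The mean level of the 18 markers ran from -0.13 to 0.15 in the controls and from 0.19 to 0.55 in the furan rats, so the groups did not overlap. These means hold no slide term and include the 3 called markers. Such list means also did not overlap for lymphocyte and natural killer cells, red cells, male-predominant genes, and metallothioneins and zinc transport. In those lists the furan rats lay below the controls. Without the slide term 14 of the 18 had a value above 0 and 4 a value below 0, the lowest at -1.02. Only 10 of the 18 were well above background on all 10 arrays. Defining members were not called: Krt19, a duct keratin, gave 0.64 without and 0.66 with the slide term, adjusted p = 0.126 and 0.129, Epcam gave 0.77 without and 0.57 with the slide term, adjusted p = 0.0791 and 0.0644, and Krt7 gave 0.81 without and -0.06 with the slide term, adjusted p = 0.243 and 0.923. In bulk liver, more duct cells and more RNA per duct cell cannot be told apart.

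Another 7 named genes rose in both fits. Vxn changed by 1.05 without and 1.26 with the slide term, adjusted p = 0.0412 and 0.00729. Its probe was well above background on 3 of 5 arrays in each group. Rhbdd2, a rhomboid-family membrane protein, changed by 0.89 without and 0.70 with the slide term, adjusted p = 0.0367 and 0.0091, and Camk2n1, an inhibitor of calmodulin kinase II, by 0.88 without and 0.86 with the slide term, adjusted p = 0.0464 and 0.0264. The Rhbdd2 probe was well above background on 5 of 5 control and 3 of 5 furan arrays, and its groups overlapped. Tmem120a changed by 0.80 without and 0.65 with the slide term, adjusted p = 0.0469 and 0.0201, Tars2, the mitochondrial threonyl-tRNA synthetase, by 0.79 without and 0.68 with the slide term, adjusted p = 0.0469 and 0.00173, and Cyb561, a transmembrane cytochrome, by 0.67 without and 0.65 with the slide term, adjusted p = 0.0216 and 0.00359. A second Tars2 probe gave 0.47 (adjusted p = 0.0462) without and 0.42 (adjusted p = 0.0073) with the slide term, under 1.5-fold in either fit. Mcm10, a replication initiation factor, changed by 0.73 without and 0.66 with the slide term, adjusted p = 0.0423 and 0.0417, but its probe was well above background on 1 control and 2 furan arrays. Of 28 measured cell cycle and DNA replication genes, 2 rose and 0 fell without the slide term and 1 rose with it. Their median was 0.42 without and 0.02 with the slide term, and the thymidylate synthase gene Tyms gave 0.61 without and 0.40 with the slide term, adjusted p = 0.0437 and 0.0723.

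**Figure D2:**
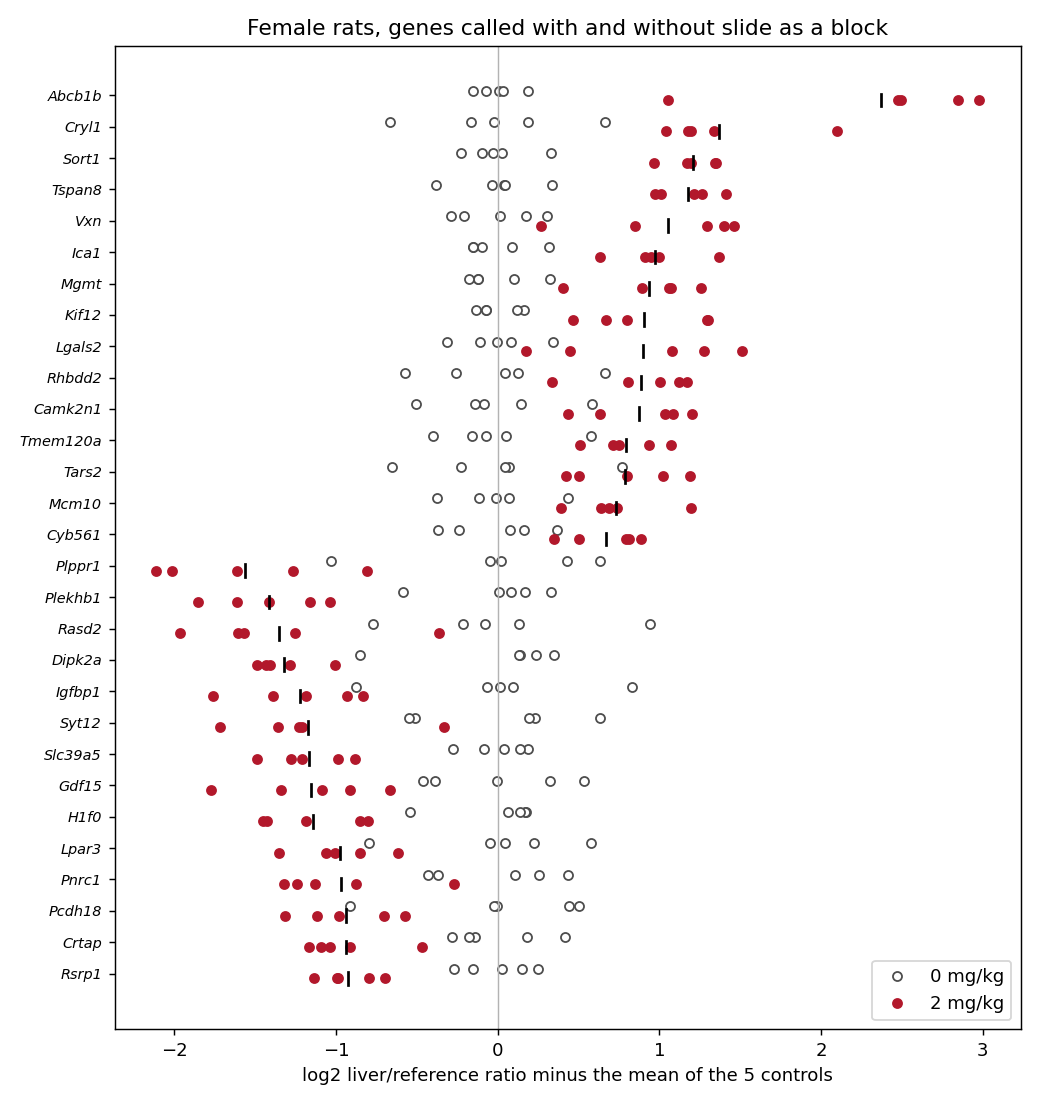
Level of 29 named genes called in both fits, with probes well above background on at least 1 array of each group, on each of the 10 arrays, as log2 liver over reference minus the mean of the 5 controls (x axis). Open points are controls, filled points are rats at 2 mg/kg, and the bar is their mean. Abcb1b stands farthest to the right, and the furan rats are spread most widely there.

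Among the falls, Slc39a5, a zinc importer of the ZIP family, was called in each of the 10 fits that left out 1 array, with and without the slide term. Its level was 2.02, 2.21, 2.49, 2.44 and 2.34 in controls 2, 4, 7, 9 and 11, and 0.81, 1.09, 1.02, 1.31 and 1.42 in furan rats 82, 83, 85, 90 and 92. The highest furan rat lay below the lowest control, and the log2 change was -1.17 (SE 0.20, adjusted p = 0.00769) without the slide term and -1.29 (SE 0.22, adjusted p = 0.00153) with it. Of 10 measured metallothionein and zinc transport genes, 1 fell in either fit, which was Slc39a5, and the list median was -0.32 without and -0.03 with the slide term.

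Gdf15, of the p53 list, had levels of 1.56, 1.35, 1.02, 0.65 and 0.57 in the controls and 0.12, 0.37, -0.74, -0.31 and -0.05 in the furan rats, with no overlap and a log2 change of -1.15 (SE 0.21, adjusted p = 0.00802) without the slide term and -1.03 (SE 0.20, adjusted p = 0.00359) with it. Ppp1r15a, which directs a phosphatase to the translation factor eIF2 alpha, changed by -0.75 (SE 0.19, adjusted p = 0.0444) without the slide term and -0.72 (SE 0.20, adjusted p = 0.0487) with it. Of the 10 fits that left out 1 array, Ppp1r15a was called in 3 without and 1 with the slide term. Zfp36, which speeds the decay of cytokine messages, changed by -0.70 (SE 0.14, adjusted p = 0.0122) without the slide term and -0.60 (SE 0.14, adjusted p = 0.0227) with it, with a probe well above background on 3 of 5 furan arrays. On slide 2, furan rat 90 minus control 11 was -0.05 for Ppp1r15a and -0.15 for Zfp36. On slide 7, furan rat 83 minus control 4 was -1.10 for Ppp1r15a and -1.06 for Zfp36. Jund, an AP-1 subunit, gave -0.78 (SE 0.26, adjusted p = 0.101) without the slide term and -0.69 (SE 0.17, adjusted p = 0.026) with it. Of 22 measured immediate early genes, 1 fell without and 2 fell with the slide term, and 0 rose in either. Their median was 0.04 without and -0.28 with the slide term. Fos gave 0.63 without and -0.33 with the slide term, adjusted p = 0.408 and 0.505, and Egr1 gave 0.12 without and 0.12 with the slide term, adjusted p = 0.671 and 0.807. Of 24 measured genes of the ER stress and amino acid response, 2 fell without and 1 with the slide term. These were Ppp1r15a and, without the slide term only, Sdf2l1, an ER chaperone partner (-0.71 without and -0.54 with the slide term, adjusted p = 0.0412 and 0.0479).

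Igfbp1, the hepatic binding protein for insulin-like growth factors that insulin represses, had levels of 2.11, 2.93, 2.19, 2.03 and 1.22 in the controls and 1.16, 0.91, 0.33, 1.26 and 0.70 in the furan rats. Control 11, at 1.22, lay below the highest furan rat, so the groups overlapped. The log2 change was -1.22 (SE 0.27, adjusted p = 0.0257) without the slide term and -1.22 (SE 0.31, adjusted p = 0.0292) with it. Furan rat 90 minus control 11, which shared slide 2, was 0.04. Furan rat 83 minus control 4, which shared slide 7, was -2.02. Irs2, an insulin receptor substrate, gave -0.69 (SE 0.20, adjusted p = 0.0785) without the slide term and -0.93 (SE 0.17, adjusted p = 0.00267) with it. Zbtb16, a transcription factor that glucocorticoids induce, gave 0.84 (SE 0.52, adjusted p = 0.298) without the slide term and 1.66 (SE 0.35, adjusted p = 0.00862) with it, and Fbp2, a fructose bisphosphatase, gave 0.52 without and 0.75 with the slide term, adjusted p = 0.158 and 0.0201. Of 26 measured genes of the fasting, insulin and glucocorticoid response, 0 rose and 1 fell without the slide term and 2 rose and 2 fell with it. The gluconeogenic enzyme genes were not called, with -0.24 without and 0.39 with the slide term, adjusted p = 0.75 and 0.684 for Pck1 and -1.24 without and -0.45 with the slide term, adjusted p = 0.15 and 0.571 for G6pc1.

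The promoter windows of Abcb1b, of Ppp1r15a and of Slc39a5 are shown because these genes gave a rise and 2 of the falls described above. Each runs from 250 bases before to 50 bases after the annotated start in RefSeq, build GRCr8, 300 bases in all, and is printed 5′ to 3′ on the gene's strand. Capitals mark matches on either strand to 3 motifs, the cAMP response element TGACGTCA, the AP-1 element TGANTCA and the core of the antioxidant response element TGACNNNGC, which can overlap each other. Abcb1b lies at chr4:26279980-26280279, strand minus, Ppp1r15a at chr1:105139547-105139846, strand minus, and Slc39a5 at chr7:1414735-1415034, strand minus.
Abcb1b: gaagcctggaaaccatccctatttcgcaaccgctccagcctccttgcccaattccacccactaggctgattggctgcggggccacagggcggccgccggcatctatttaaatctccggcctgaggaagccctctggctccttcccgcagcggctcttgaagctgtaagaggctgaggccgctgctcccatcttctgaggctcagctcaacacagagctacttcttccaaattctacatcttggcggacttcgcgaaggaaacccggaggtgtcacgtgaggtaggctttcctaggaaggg
Ppp1r15a: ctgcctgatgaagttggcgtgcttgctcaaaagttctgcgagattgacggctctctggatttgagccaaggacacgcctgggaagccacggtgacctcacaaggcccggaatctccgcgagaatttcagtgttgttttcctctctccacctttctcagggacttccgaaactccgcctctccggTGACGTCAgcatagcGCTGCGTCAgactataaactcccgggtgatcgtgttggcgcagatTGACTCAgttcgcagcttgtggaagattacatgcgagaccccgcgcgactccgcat
Slc39a5: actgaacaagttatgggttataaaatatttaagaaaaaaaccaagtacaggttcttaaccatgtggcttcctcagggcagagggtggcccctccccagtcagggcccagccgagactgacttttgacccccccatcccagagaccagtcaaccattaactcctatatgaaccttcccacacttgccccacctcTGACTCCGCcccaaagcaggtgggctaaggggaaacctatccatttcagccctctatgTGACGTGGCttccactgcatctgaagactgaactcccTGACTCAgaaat
The Ppp1r15a window held all 3 motifs, the Slc39a5 window an AP-1 element and 2 antioxidant cores, and the Abcb1b window none of these letters. Over all 33469 promoter windows, 1.83% held the cAMP response element, 7.33% the AP-1 element and 12.1% the antioxidant core. Among 50 genes that the naming rule took as called in either fit and whose window was found, these motifs were in 4, 4 and 8 windows.

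The other falls called in both fits were of mixed kind. Plekhb1, a pleckstrin domain protein, had levels of 2.66, 1.99, 2.58, 2.74 and 2.90 in the controls and 0.96, 1.41, 0.72, 1.16 and 1.54 in the furan rats, with no overlap and a log2 change of -1.42 (SE 0.30, adjusted p = 0.0199) without the slide term and -1.05 (SE 0.28, adjusted p = 0.0418) with it. H1f0, a linker histone of cells that have stopped dividing, changed by -1.14 (SE 0.21, adjusted p = 0.00802) without the slide term and -1.08 (SE 0.23, adjusted p = 0.00837) with it, also with no overlap, while a second H1f0 probe gave -0.09 (adjusted p = 0.80) without the slide term. Dipk2a changed by -1.32 without and -0.80 with the slide term, adjusted p = 0.0257 and 0.0241, and Rsrp1 by -0.92 without and -0.78 with the slide term, adjusted p = 0.0199 and 0.0273, each with no overlap. Crtap, a part of the complex that hydroxylates collagen prolines, changed by -0.94 without and -0.67 with the slide term, adjusted p = 0.0315 and 0.0418, and its other probe gave 0.40 (adjusted p = 0.283) without the slide term.
Lpar3, a lysophosphatidic acid receptor, changed by -0.98 without and -0.78 with the slide term, adjusted p = 0.0315 and 0.0136. Rasd2, a Ras-like GTPase, changed by -1.35 without and -1.12 with the slide term, adjusted p = 0.0412 and 0.0251, and Plppr1 by -1.56 without and -1.02 with the slide term, adjusted p = 0.0315 and 0.0293. Syt12, a synaptotagmin, changed by -1.17 without and -0.88 with the slide term, adjusted p = 0.0441 and 0.0431, Pcdh18, a protocadherin, by -0.94 without and -0.85 with the slide term, adjusted p = 0.0216 and 0.0023, and Pnrc1, a nuclear receptor coactivator, by -0.97 without and -0.65 with the slide term, adjusted p = 0.0315 and 0.0023. The probes of Plppr1 and Syt12 were each well above background on only 2 of 5 furan arrays. Furan rat 90 was the highest of the furan rats for 9 of the 15 named falls and furan rat 82 the lowest for 8 of the 15 named rises.
Below these 15 by size, Akap5, a kinase anchoring protein, changed by -0.92 without and -0.87 with the slide term, adjusted p = 0.0424 and 0.0483, Epha4, an ephrin receptor, by -0.84 without and -1.10 with the slide term, adjusted p = 0.0424 and 0.000519, Lurap1 by -0.84 without and -0.83 with the slide term, adjusted p = 0.0216 and 0.0127, and Il1a, the cytokine interleukin 1 alpha, by -0.68 without and -0.76 with the slide term, adjusted p = 0.0257 and 0.00804. Their other probes were weaker, with -0.22 for Lpar3, -0.51 for Epha4 and -0.40 for Il1a without the slide term, none of them called in that fit. The related Il1b gave -1.02 without and -0.86 with the slide term, adjusted p = 0.0625 and 0.046. The Epha4 probe called in both fits was well above background on 1 of 5 furan arrays, and the Lurap1 probe on 3 of 5.

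Without the slide term only, 71 probes were called, 26 up and 45 down, and all 71 had the same sign with the slide block. Of these, 25 kept an adjusted p of at most 0.05 with the block at less than 1.5-fold. A2m, a protease inhibitor of plasma, had levels of -3.88, -3.22, -3.48, -4.003 and -3.57 in the controls and -2.09, -1.77, -0.96, -2.37 and -2.50 in the furan rats, with no overlap and a change of 1.69 (SE 0.43, adjusted p = 0.0444) without the slide term and 1.31 (SE 0.37, adjusted p = 0.0505) with it. It was the 1 gene to rise among 31 measured acute phase and plasma protein genes, of which 30 had a value below 0 without the slide term and 12 a value above 0 with it, the medians being -0.97 without and -0.01 with the slide term. Apoc3 gave -1.24 without and -0.12 with the slide term, adjusted p = 0.162 and 0.653, and Tf, transferrin, gave -1.05 without and -0.06 with the slide term, adjusted p = 0.187 and 0.867. Hmgn3, a nucleosome-binding protein, gave 0.87 without and 0.57 with the slide term, adjusted p = 0.0428 and 0.048, Lipogenin 0.83 without and 0.59 with the slide term, adjusted p = 0.0424 and 0.0556, Trmt61a, a tRNA methyltransferase subunit, 0.77 without and 0.60 with the slide term, adjusted p = 0.0315 and 0.054, and Bspry 0.71 without and 0.54 with the slide term, adjusted p = 0.0122 and 0.0161. A second Bspry probe gave -0.27 (adjusted p = 0.367) without and 0.003 with the slide term. A second Hmgn3 probe gave 0.63 (adjusted p = 0.104) without and 0.28 (adjusted p = 0.144) with the slide term. The Lipogenin probe was well above background on 5 of 5 control and 3 of 5 furan arrays.
Cyp4a8, a fatty acid hydroxylase, had levels of 2.93, 2.90, 3.16, 3.81 and 2.23 in the controls and -0.69, 0.48, -0.40, 2.57 and 0.85 in the furan rats. Rat 90 lay in the control range and the other 4 furan rats lay below it. The log2 change was -2.44 (SE 0.62, adjusted p = 0.0464) without the slide term and -2.31 (SE 0.69, adjusted p = 0.0621) with it, and a second probe gave 0.00 (adjusted p = 0.995) without the slide term. Obp3, an alpha-2u globulin family protein more abundant in male liver, gave -2.13 without and -1.52 with the slide term, adjusted p = 0.0412 and 0.0621, with no overlap. Cd300lg, an endothelial mucin-like receptor, gave -1.49 without and -0.82 with the slide term, adjusted p = 0.0491 and 0.0621, and Cacng2 -1.30 without and -0.94 with the slide term, adjusted p = 0.0491 and 0.118. The Cacng2 probe was well above background on 1 of 5 furan arrays, and the Obp3 probe on 3 of 5. Usp51, a ubiquitin protease, gave -1.40 without and -0.91 with the slide term, adjusted p = 0.0315 and 0.0552, was not well above background on any furan array, and had a liver signal at least 1.85-fold higher in the controls, taking each furan array at no less than the lowest signal well above background there.

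With the slide block only, 69 probes were called, 48 up and 21 down, all with the same sign without it. Cyp3a62, a drug-metabolising P450, had levels of 2.14, 0.93, 1.48, 1.56 and 1.35 in the controls and 1.02, 2.18, 1.85, 3.21 and 1.69 in the furan rats. The groups overlapped, and the change was 0.50 (SE 0.59, adjusted p = 0.589) without the slide term and 1.62 (SE 0.35, adjusted p = 0.00985) with it. Hsd11b1, which regenerates active glucocorticoid, had levels of 0.67, 0.73, 0.69, -0.39 and -0.05 in the controls and 1.96, 1.26, 1.24, 1.33 and 1.35 in the furan rats, with no overlap, and gave 1.10 (SE 0.34, adjusted p = 0.0824) without the slide term and 1.29 (SE 0.36, adjusted p = 0.0478) with it. Aqp5, a water channel, gave 0.57 without and 1.15 with the slide term, adjusted p = 0.275 and 0.00822. Glod5 gave -0.90 without and -1.48 with the slide term, adjusted p = 0.153 and 0.00103, and Paqr4 -0.60 without and -0.94 with the slide term, adjusted p = 0.0995 and 0.000632.
Of 33 measured glutathione and NRF2 target genes, 0 were called without the slide term and Gstm4, a glutathione transferase, rose with it (0.48 without and 0.82 with the slide term, adjusted p = 0.257 and 0.00837), by both of its probes. The list median was -0.08 without and 0.18 with the slide term. Gstp1 gave 0.92 without and 0.95 with the slide term, adjusted p = 0.16 and 0.202, Nqo1 0.52 without and 0.00 with the slide term, adjusted p = 0.344 and 1, and Hmox1 -0.19 without and -0.17 with the slide term, adjusted p = 0.495 and 0.645. Gstm genes are near-identical copies, so their probes may share signal.

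The lists of abundant liver transcripts moved with the slide term. Of 41 measured cytochrome P450 genes, 38 had a value below 0 without the slide term and 24 a value above 0 with it, and Cyp4a8 was called in the first fit and Cyp3a62 in the second. The medians were -0.66 without and 0.06 with the slide term. The median of 10 measured bile acid synthesis genes was -0.72 without and 0.08 with the slide term, of 19 conjugation enzymes -0.63 without and -0.04 with the slide term, and of 24 fatty acid oxidation genes -0.26 without and 0.15 with the slide term, with 0 called in any. Slc27a5, a bile acid ligase, gave -0.97 without and 0.27 with the slide term, Baat -0.67 without and 0.05 with the slide term, Sult1a1 -0.88 without and 0.06 with the slide term, Ugt1a6 -0.27 without and 0.11 with the slide term and Acaa1a -0.39 without and 0.02 with the slide term. Fabp5, of the fatty acid oxidation list, gave -0.23 without and 0.17 with the slide term. Lipid and cholesterol synthesis had a median of -0.49 without and -0.26 with the slide term over 24 genes with 0 called. In that list Fdps gave -0.57 without and -0.14 with the slide term and Hmgcs1 -0.52 without and -0.26 with the slide term. For 10 thyroid hormone response genes the median was -0.58 without and 0.09 with the slide term with 0 called. Among these, Me1, the malic enzyme, gave -0.68 without and -0.78 with the slide term, and Spp2 -0.65 without and 0.13 with the slide term. For 13 circadian clock genes the median was -0.29 without and -0.04 with the slide term with 0 called, and Dbp gave 0.12 without and 0.07 with the slide term and Usp2 -0.16 without and 0.13 with the slide term.
Sex-biased genes were read the same way. Of 14 measured female-predominant genes, 0 were called and the median was -0.89 without and -0.34 with the slide term, with Cyp2c7 at -1.23 without and -0.42 with the slide term and Gsta5 at -0.66 without and 0.19 with the slide term. Among the 14 genes named here from Slc27a5 to Gsta5, the lowest adjusted p of either fit was 0.106, for Me1. Of 19 measured male-predominant genes, Cyp4a8 and Obp3 fell without the slide term and 0 were called with it, the median being -0.94 without and -0.10 with the slide term. Of 16 export and uptake transporters, 0 were called without and 1, Abcb1b, with the slide term by the brightest probe of each gene, and the median was -0.46 without and -0.01 with the slide term.

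**Figure D3:**
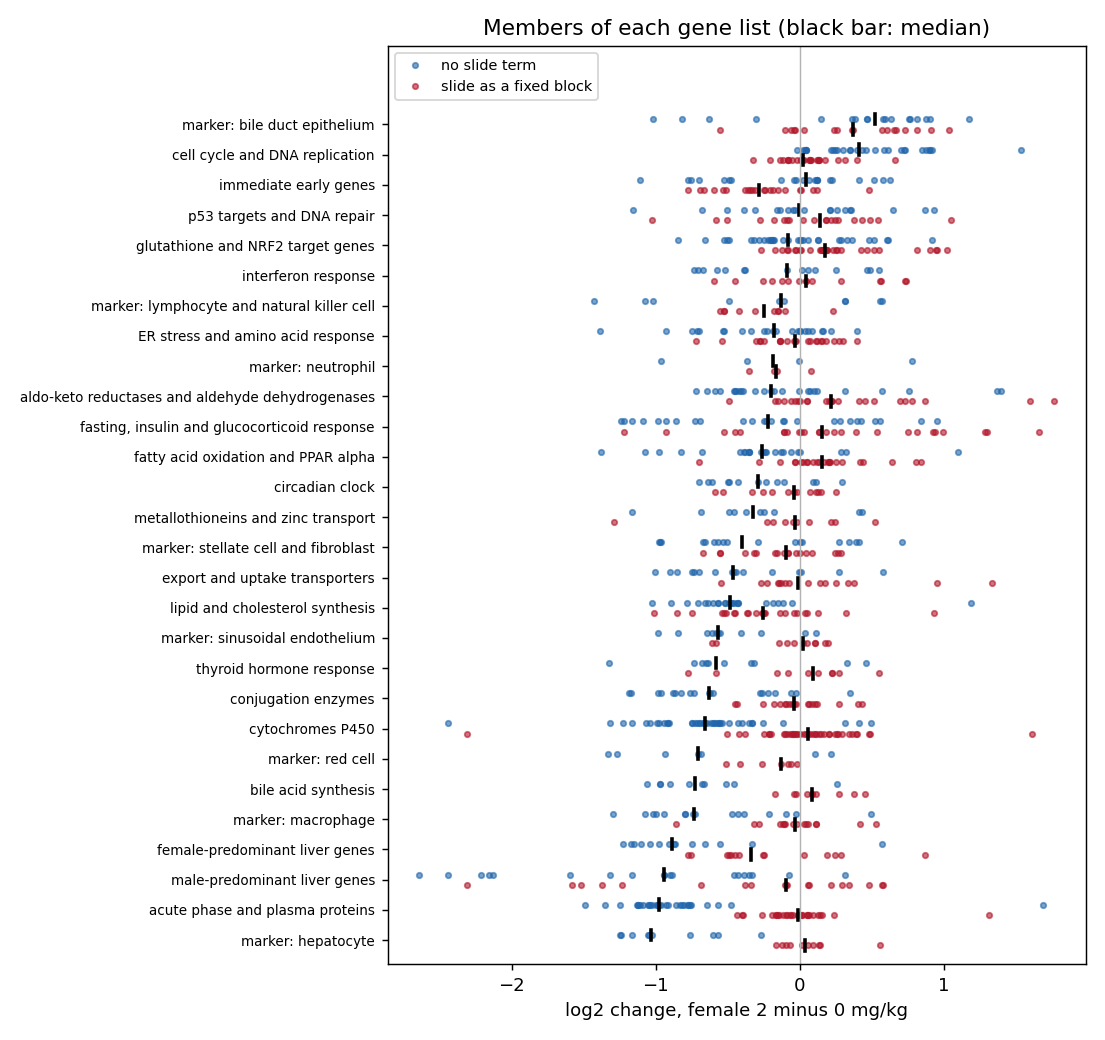
Log2 change between 2 and 0 mg/kg in females for the measured members of each gene list, without the slide term (upper row of points) and with slide as a fixed block (lower row), with the medians as black bars. The hepatocyte marker median moved from -1.04 to 0.03 between the fits, and the bile duct median was 0.52 and 0.37.

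Markers of other liver cells gave few calls. Among 18 measured stellate cell and fibroblast genes, Pdgfrb, the receptor of platelet-derived growth factor, fell without the slide term (-0.66 without and -0.55 with the slide term, adjusted p = 0.0491 and 0.0292), and Cxcl12, whose brighter probe was not called, gave -0.93 without and -0.72 with the slide term, adjusted p = 0.0572 and 0.0264 by the other. The stellate list median was -0.40 without and -0.10 with the slide term. Among 16 macrophage genes, Il1b fell with the slide block only, and the median was -0.73 without and -0.03 with the slide term. Among 11 sinusoidal endothelium genes, Smad6, an inhibitory SMAD, fell with the slide block only (-0.61 without and -0.61 with the slide term, adjusted p = 0.0549 and 0.0245), with a median of -0.56 without and 0.02 with the slide term. Of 10 lymphocyte and natural killer cell genes, 4 neutrophil genes and 7 red cell genes, 0 were called. Their medians were -0.13 without and -0.24 with the slide term, -0.18 without and -0.17 with the slide term, and -0.71 without and -0.13 with the slide term. Nkg7 gave -0.14 without and -0.31 with the slide term, Cd3d 0.32 without and -0.10 with the slide term, Lcn2 0.78 without and 0.08 with the slide term, S100a8 -0.00219 without and -0.16 with the slide term, Hba-a1 -0.93 without and -0.08 with the slide term and Hbb-b1 -0.69 without and -0.26 with the slide term. The lowest adjusted p of these 6 genes in either fit was 0.193, for Lcn2. Of 15 interferon response genes, Trim25, a ubiquitin ligase of RNA sensing, rose with the slide block only (0.47 without and 0.74 with the slide term, adjusted p = 0.183 and 0.0245), and the median was -0.09 without and 0.04 with the slide term.

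The same dose was given to males, whose 10 arrays are separate rats. In males 392 probes were called (2.22% of those tested). Of the 18 rises called in both female fits, 13 were also called in males, and all 18 had a positive male value, against 76.9% of all probes with a positive female value. Of the 29 falls, 5 were called in males and 24 had a negative male value, against 77% of all probes with a negative female value. Abcb1b gave 2.54 (adjusted p = 0.00028) in males, Cryl1 2.14 (adjusted p = 4.77e-05), and Akr7a3 2.92 (adjusted p = 6.2e-05). Slc39a5 gave 0.22 (adjusted p = 0.553) and Gdf15 -0.34 (adjusted p = 0.363). The difference between the sexes was itself tested. Without the slide term it was called for 2 probes (0.0113%), and with it for 19 (0.108%). Of the 47 probes called in both female fits, 0 had a called difference without and 1 with the slide term. This was Slc39a5, where the female change minus the male change was -1.38 (adjusted p = 0.0996) without and -1.47 (adjusted p = 0.0292) with the slide term. The level of Slc39a5 was -0.27 ± 0.27 (SD, n = 5) in control males and 2.30 ± 0.19 (SD, n = 5) in control females. The called difference in both fits with a symbol was Gsta3, a glutathione transferase, by a probe that gave 0.24 in females and 3.09 in males without the slide term (adjusted p of the difference = 0.000276). Another Gsta3 probe gave -0.20 in females, and transferases of this family share sequence.

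Levels at the lower doses were set beside those at 2 mg/kg. In females the Abcb1b level was -0.98 ± 0.13 at 0, -0.83 ± 0.49 at 0.03, -0.65 ± 0.37 at 0.12, 0.02 ± 0.62 at 0.5 and 1.39 ± 0.77 at 2 mg/kg (mean ± SD, n = 5). The Slc39a5 level was 2.30 ± 0.19 at 0, 2.20 ± 0.31 at 0.03, 2.24 ± 0.30 at 0.12, 1.92 ± 0.19 at 0.5 and 1.13 ± 0.24 at 2 mg/kg, so the groups up to 0.12 mg/kg differed by less than their SDs. The Mgmt level was 0.28 ± 0.21 at 0, 0.49 ± 0.21 at 0.03, 0.42 ± 0.36 at 0.12, 0.74 ± 0.44 at 0.5 and 1.21 ± 0.32 at 2 mg/kg. The Gdf15 level was 1.03 ± 0.43 at 0, 0.84 ± 0.37 at 0.03, 0.18 ± 0.32 at 0.12, 0.70 ± 0.40 at 0.5 and -0.12 ± 0.42 at 2 mg/kg, with no steady order over the lower doses. Some other genes called in both fits stood about as far from the controls at every dose. Without the slide term, Mcm10 differed from the controls by 0.64, 0.80, 0.61 and 0.73 at 0.03, 0.12, 0.5 and 2 mg/kg. The same differences were 0.70, 0.63, 0.72 and 0.89 for Rhbdd2 and -0.63, -0.68, -0.55 and -0.68 for Il1a. All of them rest on the same 5 control arrays. Females at 0.5 and at 0.03 mg/kg share no array with the 2 mg/kg comparison. Between them 0 probes were called (0% of those tested), and 636 had an unadjusted p under 0.05 by limma. Of the 18 rises, 17 were higher at 0.5 than at 0.03 mg/kg, against 63.5% of all probes with a positive value at 2 mg/kg. Of the 29 falls, 23 were lower, against 60.4% of all probes with a negative value. The difference was 0.85 for Abcb1b (unadjusted p = 0.0497) and -2.53 for Cyp4a8 (unadjusted p = 0.000215).

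**Figure D4:**
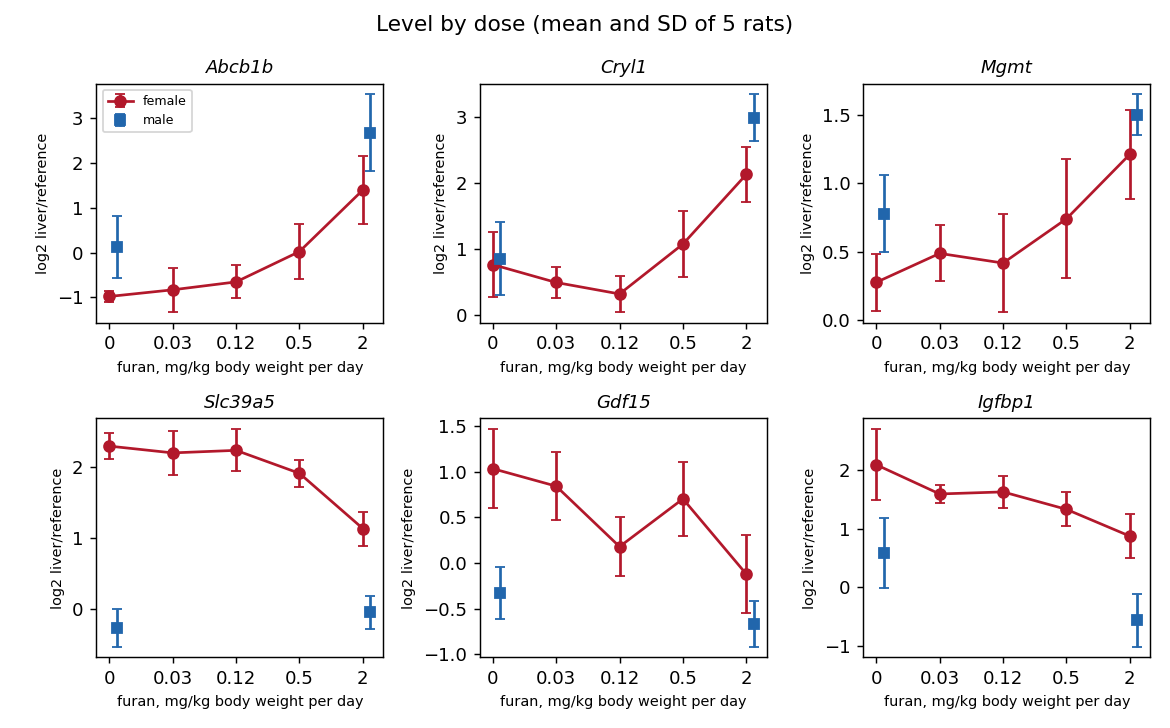
Level (log2 liver over reference, mean and SD of 5 rats) of 6 named genes against furan dose, which is spaced evenly and not to scale, in females at each dose and in males at 0 and 2 mg/kg. Abcb1b, Cryl1 and Mgmt were highest at 2 mg/kg and Slc39a5, Gdf15 and Igfbp1 lowest in females.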

How the data were processed

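Liver RNA of 49 rats was hybridised to 2-colour Agilent rat arrays. The deposited scanner files, made by the authors with Agilent Feature Extraction 10.7.3.1, hold the median spot intensity and its background in each channel, a log10 ratio and spot flags. The deposited series table holds the authors' log2 ratios, whose columns matched an array of the same group but not the same rat for all 10 arrays compared, and served as an alternative. The probe design was annotated on rat genome build rn4. The members and gene lists were chosen with earlier results of these data known.

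Here spot intensities were background-corrected with normexp (offset 50), normalised by loess within each array, cleared of outlier flags and averaged per probe. A probe was tested where at least 4 arrays of a group were well above background, which kept 17658 of 30367 probes. One model of group means over the 49 arrays was fitted with limma 3.58.1 in R 4.3.3. A probe was called at a Benjamini-Hochberg adjusted p of at most 0.05 over all probes and a fold of at least 1.5. Slide was added as a fixed block beside each result. Rats were the replicates, and the number of arrays limits the precision. Symbols came from RefSeq GRCr8 by accession for 18004 probes. A gene with several probes is described by the probe that met the rule or, in lists, by its brightest. The rule named the 15 largest rises and 15 largest falls called in both fits, the 5 largest each way called in 1 fit only, the called list members, and the brightest uncalled members of each list. Genes outside it were named for their role, and 3 genes the rule names are not reported here. The script was tested on simulated data. Alternatives changed the slide term, the arrays, the scaling, the background step and the filter.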

Additional observations from a re-analysis of the deposited data

Results flagged for a closer look

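A value was marked where the highest or lowest rat of a group stood apart from the other 4 by more than 0.71 of the range of the group. Of 182 groups of 5 checked, 9 were marked, and chance marks about 1 in 20. Abcb1b in furan rat 82, at 0.078, lay below the other furan rats, of which the lowest was 1.49. Hsd11b1 in the same rat, at 1.96, lay above the other furan rats, which reached 1.35. Cryl1 in furan rat 92 was 2.86, with the next at 2.10. Furan rat 90 stood above the other furan rats for Slc27a5 at 10.65, with the next at 8.87, for Baat at 7.72, with the next at 6.89, for Sult1a1 at 5.65, with the next at 4.59, and for Cacng2 at 0.81, with the next at 0.23. Among the controls, Dipk2a was 1.06 in control 4, with the next at 2.04, and H1f0 was -1.78 in control 9, with the next at -1.18. Rat 90 was on slide 2 and the other furan rats were on slides 5, 7 and 8, and the part of the slide in its values was not tested.

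The furan change differed between the sexes by limma's test of the difference itself. For Gsta3 the female change minus the male change was -2.86 without the slide term. With the slide block the difference was also called for Phgdh (-1.84), the first enzyme of serine synthesis, for the aldo-keto reductase Akr1b7 (-1.52), for the glucuronosyltransferase Ugt2b7 (-1.51), and for Slc39a5 (-1.47). The first 3 of these were not called in females in either fit.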

How the results depend on the processing

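The count of 118 probes called at 2 mg/kg in females depended on the setting. It was 116 with slide as a fixed block, 152 with it as a random block, 143 with the fixed block over female arrays only, 118 with Aquantile scaling (which leaves the log ratio as it is) and 115 with the scanner log ratio. It was 309 without the dim male array, 248 with that array left out and the fixed block, 492 over female arrays only, 560 over the 10 arrays compared, 286 with the deposited table of log2 ratios, 3547 with array weights, 74 with no background correction, 59 with no filter on dim probes and 40 among probes with signal on all 10 arrays. With median centring in place of loess it was 0 by limma, with 3856 probes at an unadjusted p under 0.05, and the median of all probes moved from -0.08 to -0.49. The cause was not tested. Rises were 37.3% of the calls without and 56.9% with the slide block.

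Leaving out 1 array without the slide term gave 31, 173, 23, 4 and 587 calls without controls 7, 11, 9, 2 and 4, and 957, 11, 22, 30 and 21 without furan rats 90, 85, 83, 82 and 92. With the slide block, a choice made after seeing the data, the range was 45 to 203, with 45 without control 2, 203 without control 4, 63 without furan rat 83 and 69 without furan rat 90. The sex difference, called for 2 probes, was called for 19 with the fixed block, 34 with the random block, 5 without the dim male array, 192 with that array left out and the fixed block, 1 each with median centring, with no background correction and with signal on all 10 arrays, 4 with the scanner log ratio and 74 with array weights. Leaving out 1 array gave 1 to 3 calls without the slide term, with 1 each without control 4 and furan rats 83 and 85, and 3 to 45 with it, with 5, 14, 9 and 45 without controls 11, 9, 2 and 4, and 29, 12, 4, 9 and 12 without furan rats 90, 85, 83, 82 and 92. The comparison of 0.5 with 0.03 mg/kg gave 14 calls with the scanner log ratio and 0 in every other setting run.

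The naming rule's 15 largest rises and 15 largest falls were chosen for their calls without and with the fixed block. Of these 30, the call was lost by 30 with median centring, 11 with the scanner log ratio, 10 with the fixed block over female arrays only, 8 with no filter on dim probes, 6 with no background correction, 4 over the 10 arrays compared, 4 of the 21 with signal on all 10 arrays and 3 over female arrays only. None of the 30 lost it with the random block, without the dim male array, with array weights or with the deposited log2 ratios, while 1 of 4 genes called in both fits below them by size did with the last. Over 300 fits of these 30 genes that left out 1 array, the call was lost in 158 without and in 90 with the slide term. The signs that turned belong to genes that were not called, or to Trim25, which was called with the slide block only. With median centring, the values that turned sign were -0.27 for Trim25, -0.40 for Cd3d and -0.66 for Dbp. With slide as a fixed block, the values that turned sign were -0.099 for Cd3d, 0.021 for Acaa1a, 0.27 for Slc27a5, 0.17 for Fabp5, 0.11 for Ugt1a6, 0.057 for Sult1a1, 0.13 for Usp2, 0.19 for Gsta5, 0.13 for Spp2 and 0.051 for Baat. With slide as a random block, the values that turned sign were -0.040 for Cd3d, 0.092 for Slc27a5, 0.12 for Fabp5, 0.051 for Ugt1a6, 0.080 for Usp2, 0.062 for Gsta5 and 0.012 for Spp2. With the scanner log ratio, the values that turned sign were -0.046 for Lcn2 and 0.0018 for Ugt1a6. With array weights, the values that turned sign were 0.089 for S100a8 and -0.029 for Dbp. With the fixed block and the dim male array left out, the values that turned sign were 0.34 for Fabp5, 0.0086 for Ugt1a6 and 0.076 for Usp2. Over the fits that left out 1 array, S100a8 ran from -0.085 to 0.091. Over the fits that left out 1 array, Fabp5 ran from -0.59 to 0.047.

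No paired analysis was possible because the female 2 mg/kg rats and female controls share no animal numbers. The limits are the 5 rats a group, the slides, which hold the groups unevenly, and the liver channel, dimmer on slides 5, 6 and 8 and on most arrays of slide 7. A call that needs the slide term, or is lost with it, is given as such above.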
